A study of Homo sapiens with 18 samples.

Results

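Human lung fibroblasts of the IMR90 line were exposed to 5-fluorouracil (5-FU) for 6 h or for 12 h, and the RNA of the repetitive part of the genome was compared between the 12 h and the 6 h cultures directly. The comparison uses 4 of the 18 samples of the series, 2 libraries at each time, chosen by their labels alone. Both groups are IMR90, an established wildtype diploid line, and both carried 5-FU at 375 µM, so that the groups differ by time with the drug and by time in culture. No vehicle library enters the contrast. As references for level stand 2 untreated libraries, whose medium was renewed 12 h before extraction, 2 libraries after 6 h and 2 after 24 h of dimethyl sulfoxide (DMSO) in matched volume, and 2 libraries after 24 h of 5-FU at 375 µM. The fit used for the tests also held 2 libraries after 12 h of DMSO, which are not among these references. The table holds read counts for 2404193 annotated repeat copies under 1113 repeat names, of which 63602 copies (called loci here) and 1078 names (called subfamilies, all copies of a name summed) had enough counts to be tested. The labels do not say whether the libraries of a group came from separate cultures, so the p-values measure only the spread between these libraries. The table holds no genes, and the labelled cell line was therefore not checked against marker genes.

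5-FU is a pyrimidine analog that is converted in cells to fluorinated nucleotides, which block thymidylate synthase and are built into RNA and DNA. Repeats include retrotransposons (L1, which encodes its own reverse transcriptase, and Alu and SVA, which borrow it), relics of retroviruses with their long terminal repeats (LTRs), DNA transposons, satellites, and the genes and pseudogenes of small structural RNAs. Of the small RNAs, 7SL (the RNA of the signal recognition particle), 7SK (which holds back the elongation factor P-TEFb), BC200 (a cytoplasmic RNA related to Alu), the Y RNAs, U6, 5S and the tRNAs are made by RNA polymerase III, and U1 and most other spliceosomal RNAs by RNA polymerase II.

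The reference sequence of U1 is shown because U1 is among the abundant small RNAs that rose. It is the annotated RNU1-1 transcript of GENCODE at chr1:16514122-16514285 (GRCh38, minus strand), while the counts were made on hg19, so it stands for the RNA and not for a counted copy. The capitals mark the 9 bases that pair with the 5′ splice site.
U1: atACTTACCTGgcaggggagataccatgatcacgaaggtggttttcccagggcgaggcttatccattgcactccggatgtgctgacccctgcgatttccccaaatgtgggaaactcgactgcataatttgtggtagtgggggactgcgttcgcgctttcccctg

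The 4 libraries held 4816706 and 5535543 counts at 6 h and 3927593 and 4084675 at 12 h, within the 2412334 to 6290320 of the 14 libraries of the table. Copies with at least 1 count numbered 459418 and 457561 at 6 h but 314016 and 326803 at 12 h. The 2 libraries after 24 h of 5-FU stood apart from each other, with 43.7% and 33.8% of their counts in rRNA, tRNA and small RNA, against 38.6% and 39.2% at 6 h and 44.7% and 45.2% at 12 h. Counts that rest on the 24 h libraries are therefore given also without each of them. Counts of near-identical copies (U1, 7SL, tRNAs, young L1) depend on how reads that fit several copies were placed, which is not given in the sources used here, and such loci are uncertain. The table gives neither strand nor gene, so that reads of a long transcript running through a copy count like reads of a transcript that starts in it. In RNA from whole cultures, fewer cells and less RNA per cell cannot be told apart.

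Between 6 h and 12 h of 5-FU, 942 loci rose and 1105 fell (edgeR's quasi-likelihood test on all 14 libraries, Benjamini-Hochberg adjusted p under 0.05), which is 3.22% of the 63602 tested, 1.48% upward and 1.74% downward. The median log2 fold change was 1.61 among the risen and -1.96 among the fallen loci, and -0.083 over all tested. In 936 of the 942 risen loci and 1103 of the 1105 fallen loci the 2 libraries of 12 h lay apart from the 2 of 6 h. The calls come from these same libraries, and over all tested loci 23.5% lay apart upward and 27.5% downward. Among subfamilies, 52 rose and 245 fell of 1078 (27.6%, with 4.82% upward and 22.7% downward), and in all 297 the 2 times did not overlap, as in 16.2% of all subfamilies upward and 53.7% downward. The subfamily split depends on scaling: the median of all subfamilies was -0.19 with the factors used, -0.019 with DESeq2's size factors in edgeR (73 risen, 95 fallen) and 0.0036 with factors from the subfamily sums (75 risen, 70 fallen). Changes of subfamilies are therefore read against that median. The counts also need both libraries of each time. Without the first or second 6 h library 411 or 308 loci and 84 or 65 subfamilies were called, and without the first or second 12 h library 482 or 352 loci and 63 or 49 subfamilies, with the lone library assumed to vary like the other groups. Without the first or second 24 h library of 5-FU, which enters only the estimate of spread, 3533 or 3586 loci were called.

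**Figure D1:**
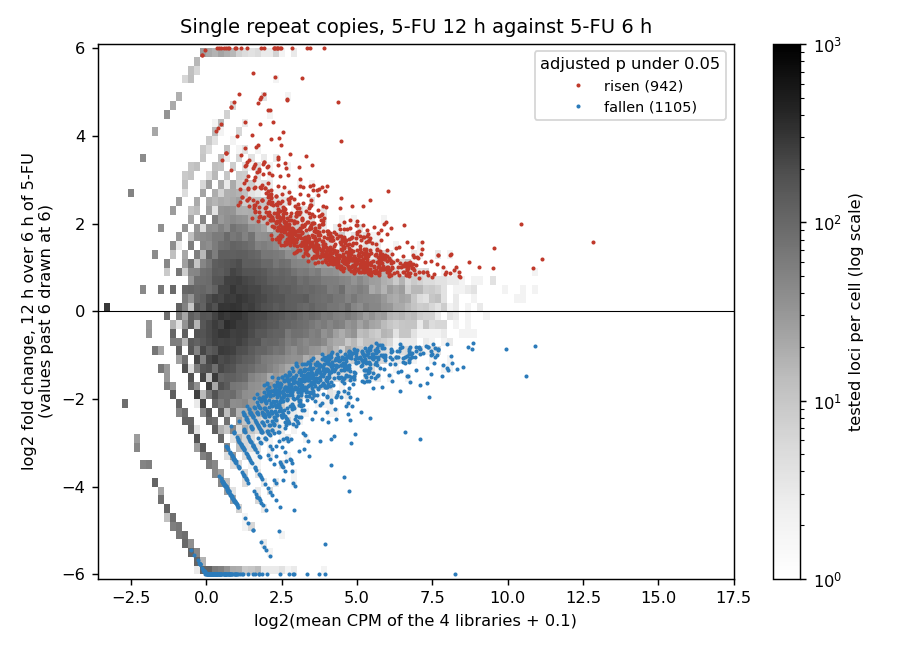
Each gray cell counts tested repeat copies by mean level (x axis, log2 of the mean CPM of the 4 libraries plus 0.1) and by log2 fold change of 12 h over 6 h of 5-FU (y axis), on a log gray scale, and points are the called loci. The 942 risen (red) and 1105 fallen (blue) loci lie above and below 0, and values past 6 are drawn at 6.

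The largest shift in the makeup of the libraries was toward small structural RNA. Small RNAs other than rRNA and tRNA took 22.2% and 23.8% at 6 h and 33.2% and 35.2% at 12 h, where the 6 reference libraries had 17.7% to 22.7%. The groups did not overlap, and both 12 h libraries lay above every reference library. Ribosomal RNA took 16.2% and 15.3% at 6 h and 11.4% and 9.87% at 12 h, inside the reference range of 8.19% to 21.1%. Shares of counts add to 100%, so a rise of one class lowers the others, and an exact permutation of 2 against 2 libraries cannot give a p below 0.333. In all, 11.2 points of share changed class between the times, against 2.06 between libraries of one time.

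BC200 rose most among the abundant small RNAs. It was counted at 3923 and 4109.8 CPM at 6 h and 9939.8 and 12006 CPM at 12 h (CPM, counts scaled to a common library total, here on the subfamily scale), a log2 change of 1.45 with SE 0.155 and adjusted p = 2.0e-04. The 6 reference libraries held 2051 to 2822 CPM and the 24 h libraries 16847 and 10999 CPM, so that the level was above every reference at 6 h already and higher at 12 h. Of the BC200 counts, 99.7% fell in a single copy, and the remaining copies gave -0.56 (adjusted p = 0.19).

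7SL was counted at 59218 and 67407 CPM at 6 h and 96462 and 99897 CPM at 12 h, a log2 change of 0.63 with SE 0.214 and adjusted p = 0.044. The groups did not overlap, and without its most abundant copy the change was 0.69 (adjusted p = 0.031). The 7SL subfamily lost its call in 9 of 13 alternative settings. One 7SL locus at chr6:28945252-28945550 rose from 575 and 552 to 1999 and 2486 CPM on the locus scale, a log2 change of 1.99 with SE 0.237 and adjusted p = 1.1e-04. 7SK was the most abundant small RNA, with 121631 and 136038 CPM at 6 h and 179299 and 205154 CPM at 12 h. Its 12 h libraries lay above its 6 h libraries, but the difference did not pass the test (a log2 change of 0.58 with SE 0.208 and adjusted p = 0.055), and it lay in 1 copy, since the others gave -0.04 (adjusted p = 0.82). In 4 of 13 alternative settings 7SK passed the test as risen.

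Of the other polymerase III RNAs apart from tRNAs, none passed the test. U6, the catalytic spliceosomal RNA, stood at 261 and 275 CPM at 6 h and 261 and 278 CPM at 12 h, with overlapping groups and a log2 fold change of 0.0061 ± 0.142 (SE). The Y RNAs, which bind the Ro60 protein, gave 0.40 (adjusted p = 0.06) for HY3, 0.26 (adjusted p = 0.35) for HY4, 0.11 (adjusted p = 0.7) for HY1 and 0.019 (adjusted p = 0.98) for HY5. HY3 passed the test as risen in 6 of 13 alternative settings. 5S, an RNA of the large ribosomal subunit, gave 0.46 (adjusted p = 0.53). A HY3 copy at chr12:42848522-42848621 was called as fallen from 0 and 1219.5 CPM at 6 h to 1.18 and 0 CPM at 12 h, a call that rests on 1 library. In the list of 9 polymerase III RNAs, 2 rose and 0 fell, with a median log2 fold change of 0.40 against -0.19 over all subfamilies. Under other scalings 2 to 4 rose and 0 fell. Without the second 6 h library 2 rose, and without any other library of the contrast 1. With the most abundant copy of each left out, 2 of 8 had a positive value, 1 rose and 2 fell, at a median of -0.15.

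U1, which recognises the 5′ splice site through the bases in capitals above, was counted at 18402 and 21316 CPM at 6 h and 39611 and 38129 CPM at 12 h, a log2 change of 0.97 with SE 0.239 and adjusted p = 0.012. The 6 h libraries lay inside the reference range of 13607 to 22824 CPM and the 12 h libraries above it, and the 24 h libraries held 39059 and 22392 CPM. U2, which pairs with the branch point, rose from 16406 and 19205 to 25949 and 24898 CPM, a log2 change of 0.51 with SE 0.136 and adjusted p = 0.016. The most abundant copy held 96.3% of the U1 and 96.5% of the U2 counts, and the other copies gave 0.86 (adjusted p = 0.59) and 0.31 (adjusted p = 0.45). Of 17 single U1 copies tested 3 rose, 1 of them on counts in 1 library only. U4 and U5 of the same spliceosome gave 0.30 (adjusted p = 0.28) and 0.38 (adjusted p = 0.17), and U7, which serves histone mRNA processing, -0.25 (adjusted p = 0.47). With any 1 of the 4 libraries left out, neither U1 nor U2 passed the test (adjusted p from 0.050 to 0.13).

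Of the 6 nucleolar RNAs tested, 2 rose and 0 fell. U17, which serves the processing of ribosomal RNA, was counted at 3298 and 3823 CPM at 6 h and 6096 and 6171 CPM at 12 h, a log2 change of 0.78 with SE 0.179 and adjusted p = 0.0094, and the change without its most abundant copy was 0.86 (adjusted p = 0.015). U8 stood far lower, at 29.1 and 33.0 CPM at 6 h and 47.7 and 44.4 CPM at 12 h, a log2 change of 0.57 with SE 0.189 and adjusted p = 0.041. Without any 1 of the 4 libraries 0 or 1 of the 6 rose. U3, also an rRNA processing factor and the most abundant of the list, gave 0.081 (adjusted p = 0.73). The 2 ribosomal subfamilies did not pass the test, with -0.53 (adjusted p = 0.21) for the large and -0.51 (adjusted p = 0.15) for the small subunit. The kit's handling of rRNA is not given in the sources used here, and the rRNA share ranged widely within the DMSO 6 h group (21.1% and 11.3%).

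**Figure D2:**
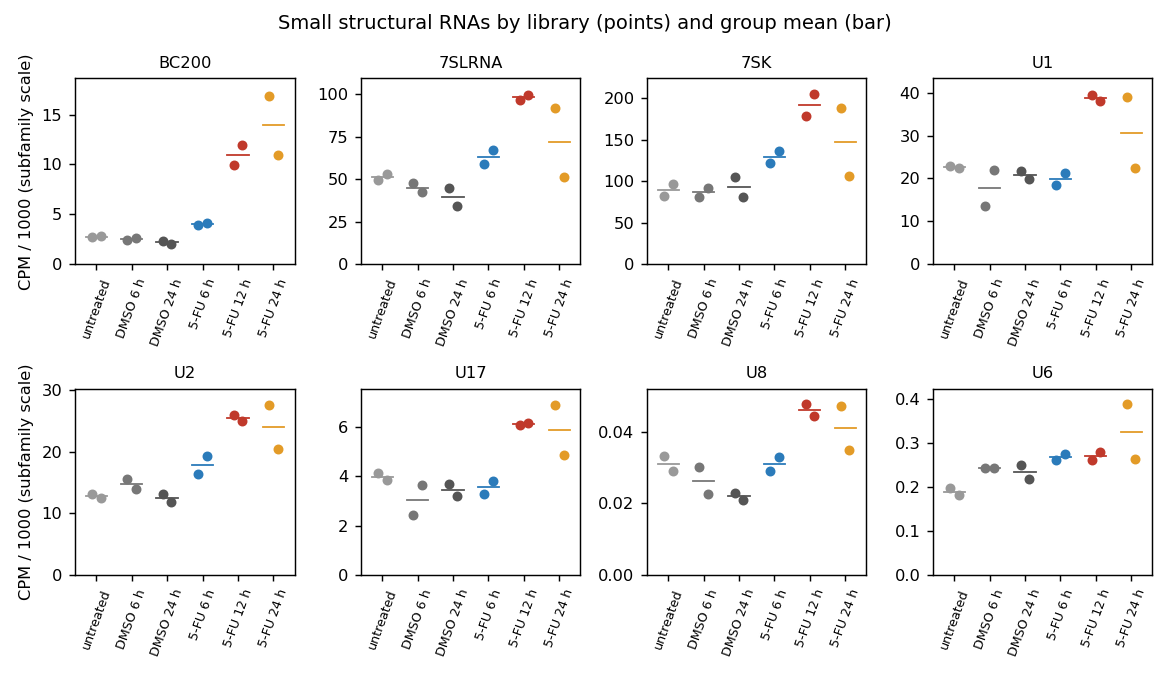
Level of 8 small RNA subfamilies (y axis, CPM divided by 1000, from 0) in each library (points) and as group mean (bars) of the untreated, DMSO and 5-FU groups. BC200, 7SL, U1, U2, U17 and U8 were higher in both 12 h libraries than in both 6 h libraries and passed the test with the factors used, 7SK was higher without passing, and U6 overlapped. The 2 libraries at 24 h differ widely from each other.

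A minority of tRNA subfamilies rose and none fell. Of 56 tRNA subfamilies tested, 6 passed the test, all upward, where 4.82% of all subfamilies rose, at a median log2 fold change of 0.28, and 42 had a positive value. The class as a whole took 0.128% and 0.141% at 6 h and 0.165% and 0.168% at 12 h, without overlap between the times, with references of 0.109% to 0.151%. tRNA-His-CAY_ was counted at 132 and 148 CPM at 6 h and 218 and 210.1 CPM at 12 h, a log2 change of 0.62 with SE 0.147 and adjusted p = 0.011, above the 69.0 to 121 CPM of the references at both times. tRNA-Gln-CAA gave 0.75 (adjusted p = 0.013), tRNA-Ser-AGY 0.71 (adjusted p = 0.021), tRNA-Met 0.66 (adjusted p = 0.024), tRNA-Lys-AAA 0.54 (adjusted p = 0.037) and the scarce tRNA-Glu-GAA 1.31 (adjusted p = 0.033). Leaving out the first 6 h library or either 12 h library left 0 of these calls, and leaving out the second 6 h library 1. Among single tRNA copies, 8 of 154 tested rose and 0 fell, against 1.48% of all loci upward, and 6 of the 8 lie on chromosome 6 between positions 26305717 and 28726212, a stretch known for its dense tRNA genes. Chromosome 6 held 59 of the 154 tested copies.

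Most of the listed L1 subfamilies fell. All 9 subfamilies of the young L1 list, L1HS (the only family still active in humans) to L1PA8A, fell, at a median log2 fold change of -0.54 against -0.19 over all subfamilies, and in each the 12 h libraries lay below the 6 h libraries, as they did in 53.7% of all subfamilies. Of all subfamilies 22.7% fell. L1HS was counted at 706 and 649.6 CPM at 6 h and 499 and 454 CPM at 12 h, a log2 change of -0.51 with SE 0.127 and adjusted p = 0.013, and its references at 506 to 755 CPM. L1PA3 was counted at 2990.3 and 3192 CPM at 6 h and 2013 and 1768 CPM at 12 h, a log2 change of -0.71 with SE 0.146 and adjusted p = 0.0065. L1PA8 was counted at 842 and 870.1 CPM at 6 h and 598 and 614 CPM at 12 h, a log2 change of -0.50 with SE 0.099 and adjusted p = 0.0056. L1PA2, L1PA4, L1PA5, L1PA6, L1PA7 and L1PA8A lay between -0.65 and -0.44. In DMSO 24 h against DMSO 6 h the median of the list was -0.26, against -0.10 over all subfamilies. At 12 h every one of the 9 was below all 6 reference libraries, and at 24 h none of the 9 was below them in either library, L1HS standing at 573 and 759 CPM. All 9 stayed below 0 under every scaling and without any single library of the contrast. The number that passed the test was 5 to 8 under other scalings, and 1, 1, 1 or 4 without the first 12 h, the second 12 h, the second 6 h or the first 6 h library.

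Older L1 fell too. Of the L1PA9 to L1PA17 and L1PB subfamilies 11 of 17 fell, of L1MA and L1MB 16 of 19, and of L1MC, L1MD and L1ME 36 of 44, with none risen, where 22.7% of all subfamilies fell, and medians of -0.43, -0.35 and -0.35. L1P4b, an L1 outside the lists, rose by 2.72 (adjusted p = 0.0059), the largest change of any risen subfamily. It rested on 1 copy, since the rest gave -0.10 (adjusted p = 0.93). L1MA1 was counted at 431 and 436 CPM at 6 h and 268 and 265 CPM at 12 h, a log2 change of -0.70 with SE 0.0991 and adjusted p = 5.4e-04. L1MA5 was counted at 1057 and 1108 CPM at 6 h and 650.2 and 607 CPM at 12 h, a log2 change of -0.78 with SE 0.123 and adjusted p = 0.0012, and L1MB7 gave -0.40 (adjusted p = 0.0019). With other scalings the fallen numbered 1 to 4 of 17, 3 to 5 of 19 and 6 to 17 of 44, while the 3 medians stayed negative and at most 1 member, of the last list, rose. Without any 1 of the 4 libraries 0 of 17 fell, 4 to 6 of 19 and 6 to 13 of 44. Of 4 HAL1 subfamilies 1 fell (HAL1, -0.34 (adjusted p = 0.015)), but 0 under 6 other scalings and without any 1 of the 4 libraries, and under 5 of those scalings 1 rose.

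The fall was graded by copy length. Summed over all copies of 5 kb or more, L1 gave 8868 and 8672 CPM at 6 h and 6153 and 5736 CPM at 12 h, a ratio of 0.678, below the 7056 to 10709 CPM of the references. Copies of 1 to 5 kb gave 30297 and 30000.3 CPM at 6 h and 23287 and 22683 CPM at 12 h, a ratio of 0.762, and copies under 1 kb a ratio of 0.906. Among tested loci the median log2 fold change was -0.90 over 1368 L1 copies of 5 kb or more, -0.66 over 4871 of 1 to 5 kb, -0.23 over 8935 shorter ones and 0.00065 over 48428 loci that are not L1. Relative to the median of all loci, the longest group stood at -0.82, and at -0.82 to -0.84 under 4 other scalings. Of the 1368, 88 fell (6.43%, against 1.74% of all loci) and 12 rose. The 24 h libraries of 5-FU held 7556 and 11986 CPM of the longest copies, 1 inside and 1 above the reference range. In vehicle over time (DMSO 24 h against DMSO 6 h) the medians of tested L1 loci were graded too. They were -0.28 for 5 kb or more, -0.18 for 1 to 5 kb and -0.062 for shorter ones. In 5-FU 24 h against DMSO 24 h they were 0.0079, -0.049 and -0.029.

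The same grading by length was seen outside L1. The median of loci under 300 bp and of 1 kb or more was 0.094 and -0.46 in LTR elements, -0.008 and -0.44 in DNA transposons, and 0 and -0.51 in L2, L3 and other LINEs. SVA had 0.41 over 29 loci of 300 bp up to 1 kb and 0.033 over 226 loci of 1 kb or more. Level moved with it too: loci under 5 CPM had a median of -0.17, and those of 20 to 50 CPM 0.16. Within those levels the longest L1 copies had medians of -0.94 and -0.69, and Alu copies 0.15 and 0.19. The part of the smaller number of detected copies at 12 h in these medians was not tested. In DMSO 24 h against DMSO 6 h, LTR elements under 300 bp and of 1 kb or more had medians of -0.075 and -0.18. DNA transposons had -0.078 and -0.16 there, and L2, L3 and other LINEs 0.011 and 0.041. In 5-FU 24 h against DMSO 24 h the medians of the same 2 lengths were 0.12 and 0.065 in LTR elements. They were 0.090 and 0.016 in DNA transposons, and 0.0099 and -0.39 in L2, L3 and other LINEs. No test compared the vehicle and drug intervals.

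**Figure D3:**
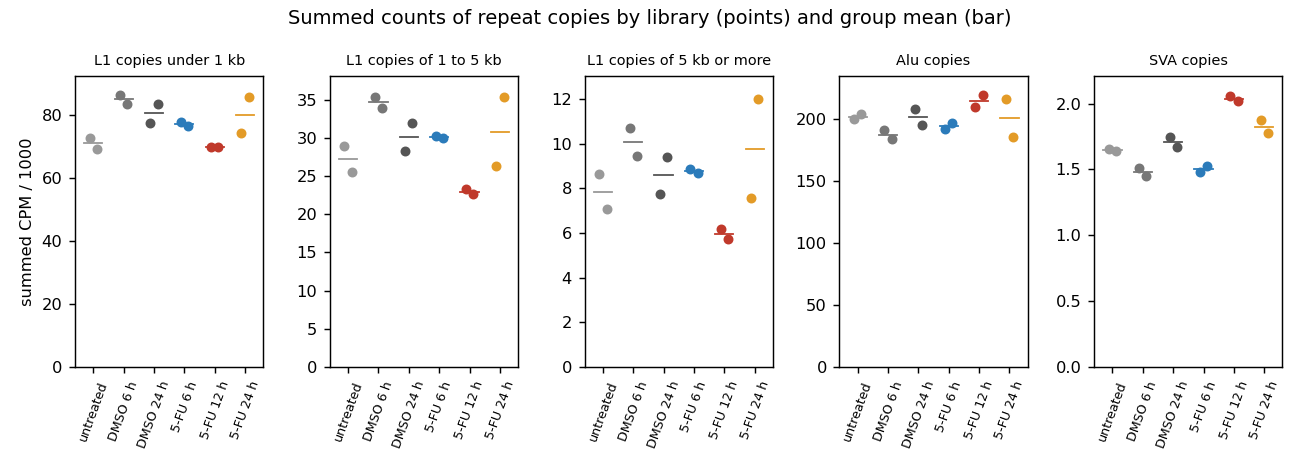
Summed level of L1 copies in 3 length groups, of Alu and of SVA (y axes, CPM divided by 1000, from 0) in each library (points) and as group mean (bars). L1 of 5 kb or more and of 1 to 5 kb lay lower in both 12 h libraries than in every other library shown, and SVA lay higher in both 12 h libraries than in every other library shown.

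SVA, a composite element that L1 copies in trans, rose. Of 6 SVA subfamilies 4 rose and 0 fell, where 4.82% of all subfamilies rose, with a median log2 fold change of 0.33. In DMSO 24 h against DMSO 6 h the list median was 0.21, against -0.10 over all subfamilies. In 5-FU 24 h against DMSO 24 h it was 0.16, against 0.13 over all subfamilies. SVA_A was counted at 78.4 and 87.7 CPM at 6 h and 143 and 139 CPM at 12 h, a log2 change of 0.76 with SE 0.124 and adjusted p = 0.0016, and its references at 73.8 to 92.9 CPM. SVA_F gave 0.40 (adjusted p = 0.01), SVA_C 0.39 (adjusted p = 0.015) and SVA_D 0.27 (adjusted p = 0.022), while SVA_E stood at -0.11 (adjusted p = 0.74) and SVA_B at -0.02 (adjusted p = 0.9). Without its most abundant copy SVA_A was at 0.36 (adjusted p = 0.084). The same number of 4 rose under 5 other scalings, and 1 rose with library size alone or without any 1 of the 4 libraries. Summed over all copies, SVA gave 1483 and 1527 CPM at 6 h and 2055 and 2020.2 CPM at 12 h, a ratio of 1.35, where the references held 1449.8 to 1747 CPM and the 24 h libraries 1875 and 1774 CPM. Among 261 tested SVA loci 12 rose (4.60%, against 1.48% of all loci) and 1 fell. The median of these loci was 0.070 from 6 h to 12 h of 5-FU and 0.24 in DMSO 24 h against DMSO 6 h.

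Few Alu subfamilies passed the test. Of 15 AluY subfamilies 0 rose and 1 fell (AluYk4, -0.49 (adjusted p = 0.0086)), and of 17 AluS, 4 AluJ and 4 monomer subfamilies none passed the test. Under other scalings up to 2 AluS subfamilies and 1 monomer rose, and the AluS median was 0.013 with a sign that changed with the scaling. Summed over all copies Alu gave 191904 and 196914 CPM at 6 h and 210208 and 219905 CPM at 12 h, a ratio of 1.11. As a share of counts outside structural RNA, Alu went from 31.8% ± 0.39 to 34.8% ± 0.677 (SD, n = 2 each) and L1 with HAL1 from 18.9% ± 0.321 to 16.04% ± 0.299. The mean Alu share was 34.8% in untreated libraries, 30.2% in DMSO 6 h and 33.1% in DMSO 24 h. For L1 with HAL1 it was 18.3%, 20.8% and 19.6%. Single Alu loci had a median of 0.16, with 0.15 for AluJ, 0.17 for AluS and 0.16 for AluY, and of 17170 tested 304 rose (1.77%) and 206 fell (1.20%). None of the 4 subfamilies of MIR, an older SINE, passed the test. Of 9 L2, L3 and L4 subfamilies 4 fell, where 22.7% of all subfamilies fell, but 1 under each of 6 other scalings and without any 1 of the 4 libraries. L3b was counted at 1672 and 1654 CPM at 6 h and 1198 and 1150.5 CPM at 12 h, a log2 change of -0.50 with SE 0.0614 and adjusted p = 3.5e-04.

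**Figure D4:**
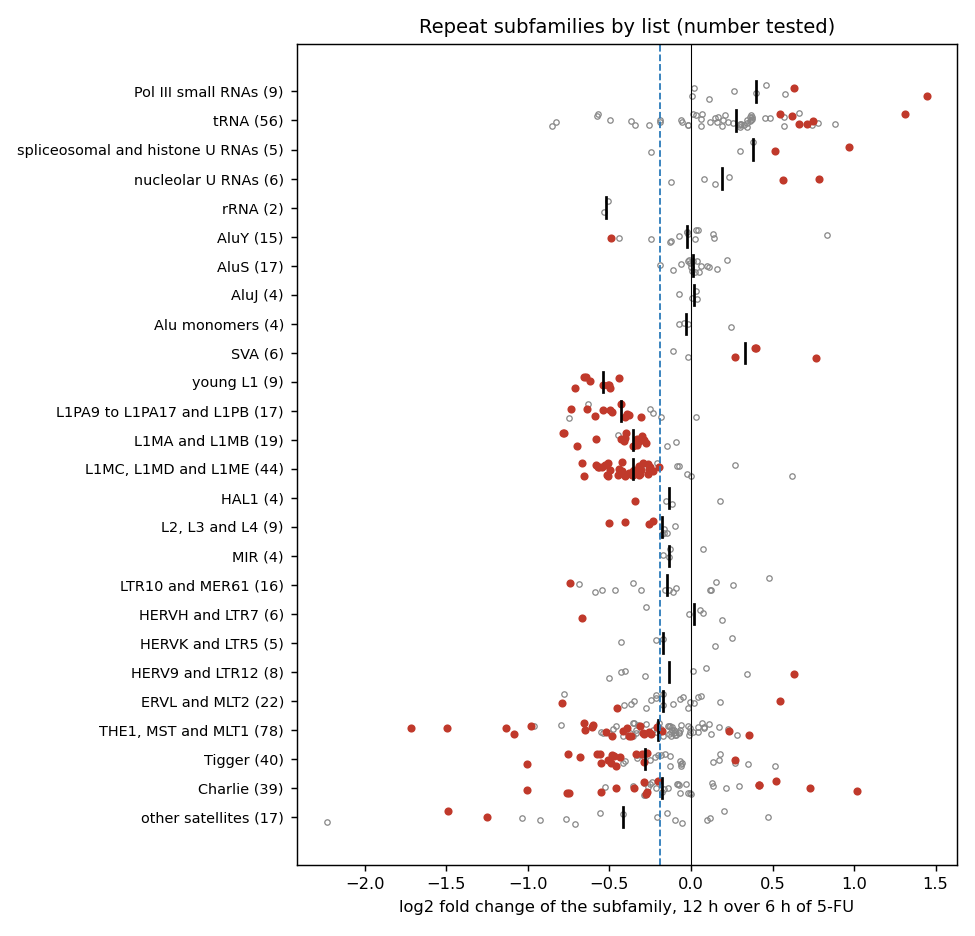
Log2 fold change of each subfamily (x axis) by list, with the number tested in brackets. Filled red points passed the test (adjusted p under 0.05), open points did not, black bars are list medians and the dashed line is the median of all 1078 subfamilies, -0.19. The medians of the 4 L1 lists lie to the left of that line, and those of SVA and the tRNAs to its right.

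Retroviral LTR subfamilies went both ways. In the list of THE1, MST and MLT1, mammalian LTR retrotransposons without envelope genes, 22 of 78 fell and 2 rose, near the shares of all subfamilies (22.7% and 4.82%), but 6 to 9 fell under other scalings, 3 to 8 without any 1 of the 4 libraries, and the list median of -0.20 lay near that of all subfamilies. LTR9B rose from 121 and 133 to 227 and 192 CPM, a log2 change of 0.72 with SE 0.109 and adjusted p = 8.4e-04, and stayed at 0.55 (adjusted p = 0.0069) without its most abundant copy. LTR9C fell from 293 and 303 to 165 and 135 CPM, a log2 change of -0.99 with SE 0.131 and adjusted p = 4.4e-04, with 95.9% of its counts in 1 copy and -0.54 (adjusted p = 0.46) in the others. LTR17, the LTR of the HERV-W family, was counted at 147 and 164 CPM at 6 h and 225 and 236 CPM at 12 h, a log2 change of 0.57 with SE 0.11 and adjusted p = 0.0049. HERVL74-int and LTR53-int also rose, at 0.55 (adjusted p = 0.0059) and 0.48 (adjusted p = 0.0078). Without their most abundant copy they gave 0.31 (adjusted p = 0.073) and 0.30 (adjusted p = 0.084). Of the 6 HERVH and LTR7 subfamilies the internal part HERVH-int fell (-0.67 (adjusted p = 0.015)), of the 8 HERV9 and LTR12 subfamilies LTR12B rose (0.63 (adjusted p = 0.034)), and of the 5 HERVK and LTR5 subfamilies none was called, while up to 2 rose under other scalings. Of the 16 LTR10 and MER61 subfamilies LTR10B1 fell (-0.74 (adjusted p = 0.01)), and none rose. None of these 3 calls, of HERVH-int, LTR12B and LTR10B1, was left without any 1 of the 4 libraries.

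MER68-int had the smallest p of all subfamilies. It was counted at 301 and 297 CPM at 6 h and 149 and 138 CPM at 12 h, a log2 change of -1.06 with SE 0.0925 and adjusted p = 3.9e-05, below the references of 183 to 284 CPM, and the 24 h libraries held 133 and 125 CPM. MER92B was counted at 1022 and 1051 CPM at 6 h and 455 and 420.0 CPM at 12 h, a log2 change of -1.24 with SE 0.158 and adjusted p = 3.5e-04, and MLT2C1 at 319 and 347 CPM at 6 h and 204 and 180.3 CPM at 12 h, a log2 change of -0.79 with SE 0.0899 and adjusted p = 2.1e-04. Without its most abundant copy MLT2C1 stood at -0.19 (adjusted p = 0.26). MER68-int, MER92B and MLT2C1 are among the 4 fallen subfamilies also called lower in vehicle over time (DMSO 24 h against DMSO 6 h). Their changes there were -0.53, -0.94 and -0.58 (adjusted p = 0.014 each). MER63C gave -0.78 (adjusted p = 3.5e-04), with 62.9% of its counts in 1 copy and -0.43 (adjusted p = 0.073) in the others. Among DNA transposons, 16 of 40 Tigger subfamilies fell and 1 rose, and 10 of 39 Charlie subfamilies fell and 5 rose, where 22.7% of all subfamilies fell and 4.82% rose, with 7 to 10 and 3 to 4 fallen under other scalings, and 8 to 10 and 2 to 3 without any 1 of the 4 libraries. Tigger2a gave -0.58 (adjusted p = 2.1e-04) and Tigger4a -0.56 (adjusted p = 3.5e-04), the latter at -0.23 (adjusted p = 0.099) without its most abundant copy. Charlie1 was counted at 737 and 768 CPM at 6 h and 1045 and 964 CPM at 12 h, a log2 change of 0.42 with SE 0.0841 and adjusted p = 0.0059, but at 0.075 (adjusted p = 0.53) without its most abundant copy. Of 17 satellites other than alpha satellite, CER fell (-1.25 (adjusted p = 0.009)) together with the (GAATG)n repeat (-1.49 (adjusted p = 0.031)), and alpha satellite did not pass the test. Of the 52 risen subfamilies, 13 kept the call without their most abundant copy, and of the 245 fallen subfamilies 147 did.

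The risen loci with the smallest p included 3 Alu copies and 3 LTRs. Among all loci, 1.33% rose and 1.59% fell at least 2-fold with groups apart, the pool from which the named loci were taken. The AluSx1 copy at chr3:24002877-24003182 had 2 and 2 counts at 6 h and 47 and 72 at 12 h, a log2 change of 5.33 with SE 0.62 and adjusted p = 1.1e-04, and stayed at or under 0.86 CPM in every reference library. The AluY copy at chr13:110874839-110875148 was counted at 11.8 and 13.3 CPM at 6 h and 65.6 and 81.0 CPM at 12 h, a log2 change of 2.54 with SE 0.3 and adjusted p = 1.1e-04. The AluY copy at chr19:4500465-4500772 was counted at 3.21 and 2.28 CPM at 6 h and 41.7 and 40.1 CPM at 12 h, a log2 change of 3.89 with SE 0.53 and adjusted p = 5.1e-04. Its 24 h libraries held 16.7 and 6.81 CPM, and the references at most 1.12. Each of these 3 Alu copies is full length or nearly so, with 306, 310 and 308 bp. The MLT1A1 copy at chr15:25157719-25158085 was counted at 3.21 and 3.80 CPM at 6 h and 22.6 and 27.9 CPM at 12 h, a log2 change of 2.83 with SE 0.345 and adjusted p = 1.4e-04. The LTR12C copy at chrX:85226261-85227925 was counted at 16.1 and 13.3 CPM at 6 h and 63.2 and 52.6 CPM at 12 h, a log2 change of 1.98 with SE 0.266 and adjusted p = 5.0e-04, and its 12 h libraries exceeded the references of 7.74 to 12.6 CPM. The LTR17 copy at chr8:55060881-55061641 gave 2.05 (adjusted p = 4.3e-04), from 20.8 and 27.6 to 102 and 98.4 CPM. The L2c copy at chr12:91573224-91573384 was counted at 29.4 and 29.7 CPM at 6 h and 116 and 106 CPM at 12 h, a log2 change of 1.91 with SE 0.247 and adjusted p = 3.1e-04. The untreated libraries held 77.3 and 92.1 CPM of it, and the DMSO reference libraries 22.1 to 26.9 CPM. This L2c copy was the only one of the 8 risen loci named by the rule that was not also called higher after 24 h of 5-FU against 24 h of DMSO, at 0.59 (adjusted p = 0.21).

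All 8 fallen loci named by the rule had been within or above the reference range at 6 h, when only 4.79% of all tested loci lay below it. The LFSINE_Vert copy at chr4:119955419-119955601, a relic of an ancient SINE, had the smallest p of all loci. It was counted at 54.0 and 47.1 CPM at 6 h and 3.23 and 2.61 CPM at 12 h, a log2 change of -4.10 with SE 0.288 and adjusted p = 1.3e-07, and at 24 h it held 41.5 and 33.9 CPM. Its level was 9.01 and 11.7 CPM in the untreated and 30.7 to 52.9 CPM in the DMSO reference libraries. The L3b copy at chr15:39890283-39890484 was counted at 252 and 227 CPM at 6 h and 36.2 and 27.6 CPM at 12 h, a log2 change of -2.91 with SE 0.242 and adjusted p = 1.7e-06. It was also called lower after 24 h of 5-FU against DMSO, at -0.83 (adjusted p = 0.037), the only one of the 8 that was. The same L3b copy was called lower in vehicle over time too (DMSO 24 h against DMSO 6 h), at -1.15 (adjusted p = 0.044). So was the MIR3 copy named below, at -1.34 (adjusted p = 0.048), and no other of the 8 was called in vehicle. The AluSz copy at chr7:76824974-76825273 was counted at 169 and 167 CPM at 6 h and 22.6 and 27.3 CPM at 12 h, a log2 change of -2.75 with SE 0.312 and adjusted p = 8.9e-05, and the references held 7.01 to 81.6 CPM. L1MDa at chr8:69959113-69960572 gave -3.77 (adjusted p = 1.0e-05), L1MC5 at chr11:57599758-57600473 -3.51 (adjusted p = 8.9e-05), L1MC5a at chr7:93514992-93515155 -3.00 (adjusted p = 6.8e-05), MIR3 at chr7:131185625-131185775 -2.91 (adjusted p = 6.8e-05) and a further LFSINE_Vert copy at chr19:15291906-15292041 -2.45 (adjusted p = 8.0e-05). The naming rule required groups that do not overlap. All 16 loci kept call and direction under the alternatives run for them.

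Called loci lay next to each other. Joining called loci of one direction with gaps of at most 50 kb gave 158 runs of at least 3 loci, 53 risen and 105 fallen, and 1155 of the 2047 called loci (56.4%) had at least 1 called neighbour of the same direction. Neighbouring copies may lie in one transcript and are then no separate events. The risen run with most called loci, at chr6:42997339-43001921, held 15 called loci of 15 tested, most of them Alu by name, and summed to 249.8 and 252 CPM at 6 h and 659.7 and 655 CPM at 12 h, with references of 153 to 242 CPM. A run at chr6:36652397-36655104 held 7 called loci of 7 and summed to 1383 and 1508 CPM at 6 h and 3249 and 3481 CPM at 12 h, against 417 to 473 CPM in the references and 3574 and 2077 CPM at 24 h. A run at chr9:21930150-21934696 held 7 called loci of 9 tested and summed to 64.9 and 59.3 CPM at 6 h and 206 and 210.2 CPM at 12 h. A run at chr16:86521387-86524502 held 7 of 7 and summed to 146 and 144 CPM at 6 h and 416 and 414 CPM at 12 h, while the 2 untreated libraries held 372 and 534 CPM, so that its 12 h level was not above the references.

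The fallen run with most called loci spanned 32.2 kb at chr11:57589305-57621467. It held 31 called loci of 34 tested, all 34 lower at 12 h, and summed to 314 and 358 CPM at 6 h and 40.3 and 46.2 CPM at 12 h, against 163 to 440.5 CPM in the references and 126 and 199 CPM at 24 h. Among those references, DMSO gave 440.5 and 345 CPM at 6 h and 171 and 188 CPM at 24 h. At chr8:69901826-69966669, 14 of 19 tested loci fell, and the run summed to 158 and 151 CPM at 6 h and 4.70 and 11.6 CPM at 12 h. It was back at 91.3 and 83.8 CPM at 24 h. At chr1:52374437-52383168, 15 of 21 fell, from a far higher level, with 3945 and 4126 CPM at 6 h and 2316 and 2250.4 CPM at 12 h. At chr18:65148979-65172040, 13 of 36 fell, with 197 and 191 CPM at 6 h and 67.6 and 56.9 CPM at 12 h, and all 36 were lower at 12 h. In DMSO 24 h against DMSO 6 h the runs on chromosomes 11, 8, 1 and 18 had medians of -1.23, -0.33, -0.58 and -0.77.

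By chromosome, the median log2 fold change of tested loci was highest on chromosomes 19 (0.20), 16 (0.17), 22 (0.13) and 17 (0.12), and among autosomes lowest on 18 (-0.32), 4 (-0.26) and 2 (-0.20). Chromosome 6 had the largest share of risen loci, 84 of 3013 (2.79%, against 1.48% of all), and chromosome 18 the smallest of the autosomes, 5 of 1146 (0.436%). Alu loci had positive medians on every autosome, from 0.062 on chromosome 2 to 0.28 on chromosome 16. L1 loci had negative medians on every autosome except chromosome 19 (0.043). These medians are descriptions, since loci of one transcript are not independent.

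Whether the loci that rose or fell also differed in cultures that share no library with this contrast was read from 24 h of 5-FU against 24 h of DMSO. Of the 942 risen loci, 846 (89.8%) were higher there, 339 (36.0%) were called higher and 2 lower, and the median log2 fold change was 0.96. Over all tested loci 49.8% were higher and 4.23% were called, 2.42% as higher. Of the 1105 fallen loci, 794 (71.9%) were lower, 164 (14.8%) were called lower and 12 higher, at a median of -0.40, where 1.82% of all loci were called lower. A fit that leaves out a library makes its own 12 h against 6 h calls. Its number of loci called in both contrasts therefore has another base, and a larger number need not be a larger share. The 503 loci called in the same direction numbered 536 or 871 without the first or second 24 h library of 5-FU, and 256 or 244 without the first or second 24 h library of DMSO. Without 1 of the 4 libraries of the contrast, 104 to 175 such loci were left. For the 942 risen loci the share higher at 24 h was 78.9% or 92.8% and the median 0.65 or 1.18 without the first or second 24 h library of 5-FU. For the 1105 fallen loci the share lower was 67.1% or 77.3% and the median -0.35 or -0.56.

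Passage of time in vehicle was read from DMSO 24 h against DMSO 6 h, where 57 loci (0.0896%) were called. Of the fallen loci, 912 (82.5%) were lower there too, against 49.8% of all loci, at a median of -0.55, but 17 were called (0.0456% of all loci were called lower). Those 17 are 58.6% of the 29 loci called lower in vehicle. The risen loci had a median of 0.19 there, and 3 were called higher. Without the first or second DMSO 24 h library 1 or 0 of these calls in either direction were left, and without the first or second DMSO 6 h library 0 or 2. Those fits too made their own 12 h against 6 h calls. The vehicle interval of 6 h to 24 h is longer than that of the drug contrast, and no test compared them.

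Against the 6 reference libraries, 827 of the 942 risen loci lay above all of them in both 12 h libraries, where 14.2% of all tested loci did, and 162 of them were above at 6 h already (7.36% of all loci were). At 6 h 73 of the risen loci lay below all references (4.79% of all). At 24 h, 493 (52.3%) were above in both libraries, against 10.4% of all loci. Of the 1105 fallen loci, 815 lay below all references at 12 h, against 13.5% of all loci, and 130 went from above the references at 6 h to within them at 12 h. At 24 h, 378 (34.2%) were below, against 8.14% of all loci. Among subfamilies, 50 of the 52 risen (96.2%) were higher after 24 h of 5-FU than after 24 h of DMSO, as were 74.8% of all, with 27 called (10.9% of all were called higher). Of the 52, 14 were above all references at both 6 h and 12 h, as were 98 of all 1078 (20.3% of all at 6 h, 17.7% at 12 h). Of the 245 fallen subfamilies 97 (39.6%) were lower there, as were 25.2% of all, and 7 were called lower (1.21% of all), at a median of 0.043. The direction of the fallen set rests on the 24 h libraries: without the first 54 of 245 were lower (median 0.15), and without the second 186 (median -0.13). For subfamilies too, a fit without a library makes its own 12 h against 6 h calls, so the numbers called the same way have different bases. The subfamilies called the same way, 27 higher and 7 lower, numbered 49 or 100 in all without the first or second 24 h library of 5-FU, 23 or 17 without the first or second of DMSO, and 7 to 14 without 1 of the 4 libraries of the contrast. Of the same 245, 174 were below all references at 12 h (25.4% of all) and 19 at 24 h (2.97% of all). In vehicle over time 220 of them (89.8%) were lower, against 69.1% of all, and 4 were called lower (0.371% of all) and 1 higher (0.0928%). At 6 h 1.76% of all subfamilies were below every reference.

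**Figure D5:**
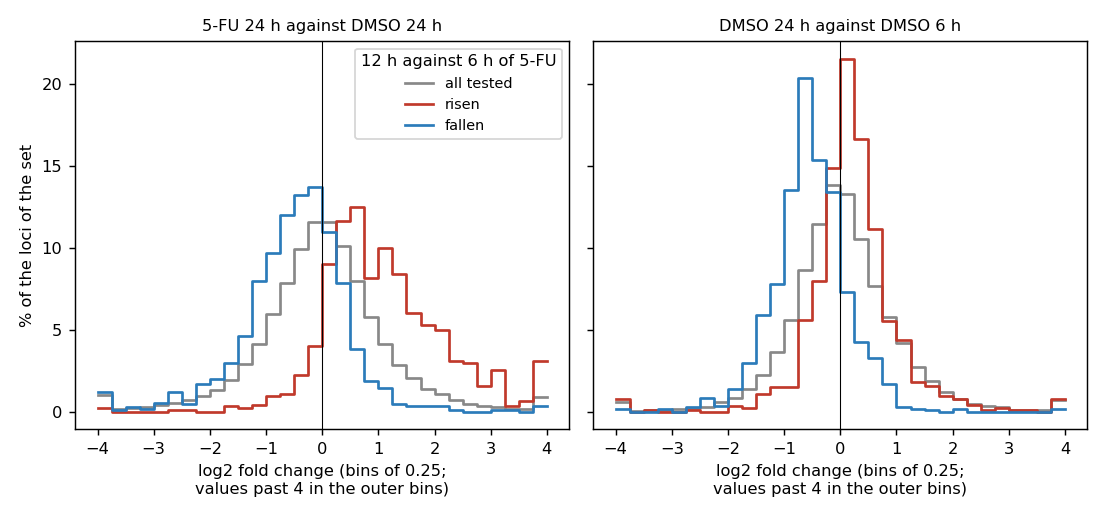
Distribution of log2 fold changes (x axis, bins of 0.25) in 2 contrasts that share no library with 12 h against 6 h of 5-FU, as percent of the loci of each set (y axis), for the 942 risen, the 1105 fallen and all 63602 tested loci, with values past 4 in the outer bins. In 24 h of 5-FU against DMSO the risen set is shifted to the right (median 0.96) and the fallen set to the left (median -0.40). In DMSO 24 h against 6 h the fallen set is shifted to the left (median -0.55).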

How the data were processed

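RNA of IMR90 cells was extracted as total RNA and sequenced with the Illumina TruSeq Stranded Total kit, per the labels. The authors deposited raw read counts per repeat copy on hg19 for 14 libraries (7 groups of 2). The submitters' processing notes list Trimmomatic 0.32, cutadapt 1.10, Bowtie2, edgeR and DESeq2 without saying which step each served, and the counting program, the treatment of reads that fit several copies and the repeat annotation are not given in the sources used here. From the deposited counts, edgeR 4.0.16 (R 4.3.3) fitted a quasi-likelihood model with a mean per group to all 14 libraries after its expression filter, which kept 63602 copies holding 84.5% of the counts of the 4 libraries. The other copies were not tested, and 828108 copies had a count in the 4 libraries. Loci were scaled by TMM factors from the filtered loci and subfamilies by factors from all copies, so CPM of loci and of subfamilies are on different scales. p-values were adjusted by Benjamini-Hochberg over all features of a fit, and standard errors are the log2 fold change divided by the square root of F. Depth per library is given in the text. Named are the 8 risen and 8 fallen loci (at least 2-fold, no overlap, 100 kb apart) and subfamilies with the smallest p, up to 4 members of each list, structural RNAs whether called or not, and the 4 runs with most called loci in each direction. Further tRNA, young L1 and SVA members were named after their values were seen, to show whole lists. The members and lists were chosen with earlier results of these data known, and list patterns were corrected after the repeat names were seen. Tested on simulated data for the loci of this contrast (63602 loci), with 200 changed, the fit recovered 1% of 2-fold and 39% of 4-fold changes, and 16.7% of its 48 calls were false. Replicates of no group agreed within sampling noise. Same-numbered libraries of 6 h and 12 h of 5-FU did not deviate together (r = 0.0019), so the numbers were not taken as pairs. Over all pairs of groups r ran from -0.11 (untreated and 5-FU 24 h) to 0.15 (DMSO 24 h and 5-FU 24 h). The Nutlin table was not used here. Alternatives (other scalings, filters, DESeq2 1.42.0, subsets of libraries) are given at the end. The U1 sequence is from GENCODE on GRCh38, and sequences of other small RNAs are not reported here.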

Additional observations from a re-analysis of the deposited data

How the results depend on the processing

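All 16 named loci kept direction and call under the alternatives run for them. Of 68 named subfamilies 18 kept theirs, 45 lost the call in some setting and 5 changed sign when their most abundant copy was left out: BC200 -0.56, L1P4b -0.10, 7SK -0.040, HY3 -3.36 and SSU-rRNA_Hsa 0.24, and the cause was not tested. Called loci (2047, 942 higher and 1105 lower) numbered 510 at adjusted p under 0.01, 4068 of 29429 with only the 4 libraries of the contrast, and 1172 of 828108 without a filter (373 higher, 799 lower). Library size alone gave 693 higher and 1695 lower, and DESeq2 1528 and 1266. Called subfamilies (297, 52 higher and 245 lower) numbered 88 at adjusted p under 0.01, 35 at a 2-fold change, 168 with size factors of the DESeq2 kind (73 higher, 95 lower), 114 with library size alone (30, 84), 174 with DESeq2 (77, 97), 486 with only the 4 libraries (95, 391), 136 without structural RNA (53, 83), 145 with factors from the subfamily sums (75, 70) and 152 with factors from the filtered loci (78, 74). Called list members (158 of 462) numbered, in the order of those 7 fits, 95, 63, 101, 242, 72, 76 and 86. Loci called in vehicle over time (20 of 2047) numbered 167 with DESeq2 and 10 without the DMSO 12 h libraries. The share of counts that changed class (11.2 points) was 3.64 outside structural RNA and 5.45 without the most abundant copy of each subfamily. Leaving out 1 library at a time gave 308 to 482 loci, 49 to 84 subfamilies, 32 to 50 list members, 104 to 871 loci called the same way after 24 h of 5-FU and 0 to 7 in vehicle, and the fits without a 24 h library or a DMSO 6 h library were chosen after seeing the data. With the replicate number as a block, 1742 loci, 249 subfamilies, 137 list members and 433 loci at 24 h were called, and 11 in vehicle. The fit on only 4 libraries gives no value for the other contrasts, and the fit without structural RNA none for those RNAs. In the simulated data, with 200 of 63602 loci changed, 2-fold changes at single loci were mostly not detected. The real data gave far more calls (2047 against 48), so the recovered share need not hold for them.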

Other observations

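The DMSO 12 h libraries entered no comparison of levels in the text above. In them BC200 was counted at 842 and 916 CPM, where the other 6 libraries without drug held 2051 to 2822 CPM, and SVA copies summed to 1147 and 1131 CPM, where those libraries held 1449.8 to 1747 CPM. L1 copies of 5 kb or more summed to 9385 and 8529 CPM, inside the range of those libraries. Small RNAs other than rRNA and tRNA took 24.97% and 27.45% of the DMSO 12 h counts, where those libraries had 17.7% to 22.7%. Both shares also lay above the 22.2% and 23.8% after 6 h of 5-FU, and below the 33.2% and 35.2% after 12 h of 5-FU. The part of time in vehicle in the shift toward small RNA was not tested. Of the named fallen runs, that on chromosome 11 summed to 144 and 130 CPM in DMSO 12 h, where those libraries held 163 to 440.5 CPM. The run on chromosome 8 summed to 61.5 and 58.1 CPM, against 67.6 to 162 CPM. The run on chromosome 1 summed to 2184 and 2588 CPM, against 2319 to 3856 CPM. The run on chromosome 18 summed to 146 and 168 CPM, against 160 to 328 CPM.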
